A study of Mus musculus with 2 samples.

Results

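Glycolysis and the response to low oxygen were followed here through 10 genes, Slc2a1, Hk2, Pfkl, Aldoa, Pgk1, Pkm, Ldha, Pdk1, Vegfa and Bnip3, chosen by name out of the 33757 features of the count table. All 10 had a row. The Aldoa symbol was carried by 2 features, ENSMUSG00000030695.17 with 2120 counts and ENSMUSG00000114515.4 with 608, and the former was used. The study profiled single mouse fibroblasts by FLASH-seq, a plate-based method that reads whole transcripts. The line, NIH3T3-Rev-VNP1-H2B-iRFP, derives from NIH3T3 fibroblasts and carries a Venus reporter named for the circadian clock repressor Nr1d1, together with a near-infrared reporter on histone H2B. Every cell carried both reporters, and cultures were unsynchronized, 95% confluent and about 5 days from seeding. Cells were trypsinized and sorted singly into 4 bins of Venus fluorescence, from dim (bin 1) to bright (bin 4), on 2 plates of 384 cells.

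All cells of plate 1 came from the high H2B-iRFP sort and all cells of plate 2 from the low sort, so that plate and sort cannot be told apart. Each Venus bin filled its own 6 well columns on both plates, so that bin and column cannot be told apart either. After filtering, 762 of 768 cells remained, and their counts were summed per plate and bin into 8 sums of 76042157 to 86612194 counts. The labels do not say that the plates came from separate cultures. The p-values of the main fit weigh differences among bins only against how unevenly those differences repeated on these 2 plates. That unevenness is partly pooled over genes. Settings that leave out a bin also weigh departures from a straight line along the bins. Plate was a covariate in the main fit, so a difference between whole plates does not enter there. All 9 fibroblast markers examined were detected in every sum. They ran from 30.0 CPM for Thy1 in bin 4 of plate 2 to 9735 CPM for Col1a1 in bin 1 of plate 1. CPM are counts scaled to the library total, adjusted here by a factor for each sum (edgeR's TMM). Markers of other cell types lay below 1 CPM, except Krt14 at 21.2 to 40.2 CPM, Cdh1 at 3.37 to 6.97 CPM and Des at 1.35 to 4.73 CPM.

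Glycolysis takes glucose through a series of cytosolic enzymes to pyruvate, which is either reduced to lactate or oxidized in mitochondria. Many of its genes, together with Vegfa and Bnip3, are textbook targets of hypoxia-inducible factor (HIF), a transcription factor that is degraded in the presence of oxygen and that binds a short DNA core known as the hypoxia response element. In a dense culture, oxygen at the cell surface depends on how fast the layer consumes it. No oxygen measurement was used here.

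The promoters of the 4 genes that rose along the Venus bins, and of Bnip3, which showed no trend, are shown for their copies of that core. The core was searched as ACGTG or GCGTG on both strands, and matches are in capitals, read as CACGT or CACGC where they lie on the opposite strand. The windows run 5′ to 3′ along the gene, from 250 bases before to 50 bases after the annotated start, and come from RefSeq on GRCm38.p6, an older build than the GRCm39 listed in the submitters' processing notes. Where a gene had several annotated starts, the window with the most matches is shown.
Slc2a1, chr4:119108495-119108794, plus strand: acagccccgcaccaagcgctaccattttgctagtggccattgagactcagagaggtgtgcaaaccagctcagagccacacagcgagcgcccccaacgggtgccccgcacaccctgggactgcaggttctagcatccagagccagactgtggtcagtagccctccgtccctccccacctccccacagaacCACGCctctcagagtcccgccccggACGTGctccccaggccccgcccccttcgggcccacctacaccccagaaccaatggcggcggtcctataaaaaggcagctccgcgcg
Pgk1, chrX:106186850-106187149, plus strand: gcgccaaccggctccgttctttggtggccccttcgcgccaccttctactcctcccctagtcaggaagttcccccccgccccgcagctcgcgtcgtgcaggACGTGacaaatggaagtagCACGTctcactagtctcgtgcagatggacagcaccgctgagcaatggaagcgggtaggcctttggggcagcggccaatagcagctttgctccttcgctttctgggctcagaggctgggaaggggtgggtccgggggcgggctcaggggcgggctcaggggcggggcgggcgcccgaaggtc
Pkm, start site 2, chr9:59656977-59657276, plus strand: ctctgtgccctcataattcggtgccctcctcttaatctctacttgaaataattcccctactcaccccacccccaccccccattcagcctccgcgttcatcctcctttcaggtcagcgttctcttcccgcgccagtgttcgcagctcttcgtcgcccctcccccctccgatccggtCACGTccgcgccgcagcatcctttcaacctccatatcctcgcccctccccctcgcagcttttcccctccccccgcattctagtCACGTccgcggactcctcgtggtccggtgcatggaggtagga
Ldha, start site 1, chr7:46845554-46845853, plus strand: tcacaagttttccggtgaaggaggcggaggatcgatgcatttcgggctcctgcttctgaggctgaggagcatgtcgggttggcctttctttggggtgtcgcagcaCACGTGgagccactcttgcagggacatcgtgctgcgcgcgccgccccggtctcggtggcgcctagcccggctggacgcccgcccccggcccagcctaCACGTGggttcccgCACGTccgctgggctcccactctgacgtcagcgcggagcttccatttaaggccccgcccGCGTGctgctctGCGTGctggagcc
Bnip3, chr7:138909457-138909756, minus strand: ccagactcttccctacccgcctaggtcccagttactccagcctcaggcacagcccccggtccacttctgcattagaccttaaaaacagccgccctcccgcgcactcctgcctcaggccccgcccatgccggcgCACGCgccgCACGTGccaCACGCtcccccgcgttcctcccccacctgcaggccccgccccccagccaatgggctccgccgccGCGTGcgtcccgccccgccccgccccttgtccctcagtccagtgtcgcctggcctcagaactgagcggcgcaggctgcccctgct
The Slc2a1, Pgk1 and Pkm windows each held 2 matches, the Ldha window 7 and the Bnip3 window 5. The palindrome CACGTG, the E-box that also binds clock activators, contains the core on both strands and counts as 2 matches. It occurred 2 times in the Ldha window and 1 time in the Bnip3 window. Of the 16 windows of the 10 genes, 12 held at least 1 match, and each gene had at least 1 such window. Among all 32851 promoter windows in the table, 43.8% held a match of the core, 20.6% held 2 or more, and 7.15% held CACGTG. Those shares count single windows, whereas the windows shown for Pkm and Ldha were picked for the most matches. The other window of Pkm held 0 matches and that of Ldha 2. A match is a run of letters and not a measured binding site, and the genes with a trend and Bnip3 without one both had matches.

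Along the Venus bins, transcripts of the glucose transporter Slc2a1 and of the enzymes Pgk1, Pkm and Ldha rose, while Hk2, Pfkl, Aldoa, Pdk1, Vegfa and Bnip3 did not pass the test of a trend. Slc2a1, Pgk1, Pkm and Ldha rose by 0.11 to 0.16 log2 units per bin, which is 1.25-fold to 1.48-fold from the dimmest to the brightest bin. None of the 10 genes fell past the threshold in edgeR, although Hk2 was lower at an unadjusted p under 0.05 and was called lower by DESeq2. These 4 of 10 calls stand beside 15.4% of the 18430 genes tested called in either direction (6.78% higher and 8.64% lower), by edgeR's quasi-likelihood test with plate as a covariate and a Benjamini-Hochberg adjusted p under 0.05. More abundant genes were called more often: of 9053 genes of mean log2 CPM 3 or more, 953 rose and 1343 fell. Of the 10 genes, only Aldoa lies below that level. The median trend was 0.09 log2 units per bin over the 10 genes and 0.00051 over all genes tested. Levels of sums below are CPM scaled by edgeR's TMM factors unless library totals are named, and levels of single cells are CPM on each cell's own total. Trends are log2 units per bin with their standard error.

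**Figure D1:**
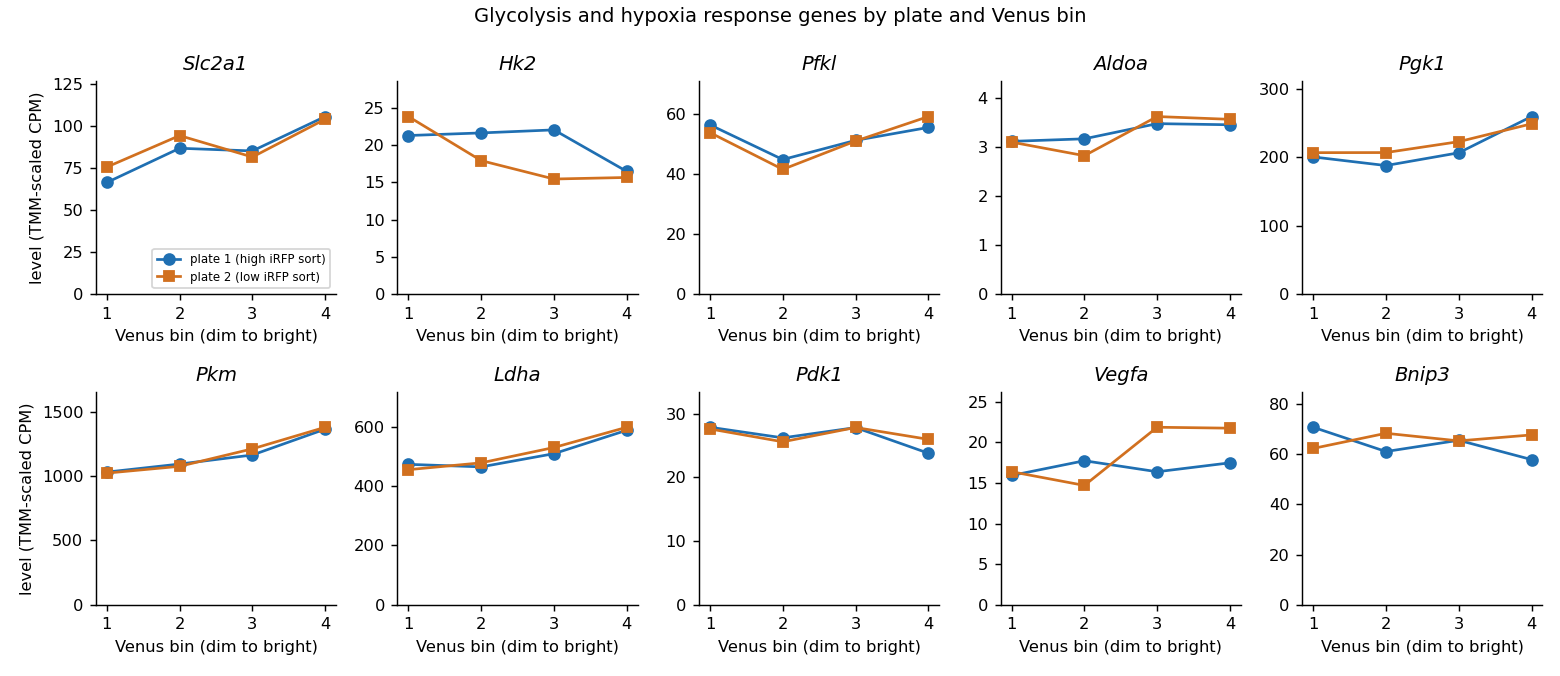
TMM-scaled CPM (vertical axes from 0, a separate scale for each gene) against Venus bin from dim to bright, for each of the 10 genes; circles are plate 1 (high iRFP sort) and squares plate 2 (low iRFP sort), 1 sum of cells per point. Pkm climbed at each step on both plates, from 1032 and 1024 to 1366 and 1380 CPM, while Bnip3 moved in opposite directions on the 2 plates.

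Slc2a1 (ENSMUSG00000028645.12) encodes GLUT1, the transporter that carries glucose into fibroblasts. From bin 1 to bin 4 it was at 66.3, 86.6, 85.0 and 105 CPM on plate 1 and at 75.5, 94.2, 81.4 and 104 CPM on plate 2. Both plates rose from bin 1 to bin 2, dipped in bin 3 and were highest in bin 4, and neighbouring bins did not overlap. The mean was 70.9 ± 6.48 CPM in bin 1 and 105 ± 1.11 CPM in bin 4 (SD, n = 2 plates). The trend was 0.16 ± 0.02, and it passed (adjusted p = 0.00593, edgeR's quasi-likelihood test). Without bin 1 the trend was 0.11 and was not called (adjusted p = 0.305, edgeR).

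Hk2 (ENSMUSG00000000628.11) encodes hexokinase 2, which traps glucose in the cell by phosphorylation. It was at 21.3, 21.7, 22.1 and 16.5 CPM on plate 1 and at 23.9, 17.9, 15.5 and 15.7 CPM on plate 2. Bin 4 lay below bin 1 on both plates, but the fall came at the last step on plate 1 and before bin 3 on plate 2, and neighbouring bins overlapped. The trend was -0.16 ± 0.05 and did not pass (adjusted p = 0.0650, edgeR's quasi-likelihood test). It passed with DESeq2 (adjusted p = 0.0104), with no filter on low counts (adjusted p = 0.0281, edgeR) and in cells thinned to equal depth (adjusted p = 0.0375, edgeR), at -0.16 in each.

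Pfkl (ENSMUSG00000020277.11) encodes the liver form of phosphofructokinase, the committed step of glycolysis. It was at 56.5, 44.9, 51.3 and 55.7 CPM on plate 1 and at 53.9, 41.7, 51.1 and 59.3 CPM on plate 2. Bin 2 was the lowest on both plates, at 43.3 ± 2.32 CPM (SD, n = 2), and lay outside the ranges of the bins on either side. The trend was 0.04 ± 0.02 and did not pass (adjusted p = 0.257), whereas the test of any difference among the 4 bins did (adjusted p = 0.0365, both by edgeR). This latter test called 5 of the 10 genes, Pfkl and the 4 with a trend, beside 8.37% of all genes tested. Among the 9053 genes of mean log2 CPM 3 or more, it called 1299. Without bin 1 the Pfkl trend was 0.20 and passed (adjusted p = 0.0256, edgeR), and without bin 4 it was -0.05.

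Aldoa (ENSMUSG00000030695.17) encodes aldolase A, which splits fructose bisphosphate. It was counted at 3.12, 3.17, 3.48 and 3.46 CPM on plate 1 and at 3.10, 2.83, 3.62 and 3.57 CPM on plate 2. The brighter pair of bins lay above the dimmer pair on both plates. The trend of 0.08 ± 0.05 did not pass (adjusted p = 0.371, edgeR). Because 2 features share its symbol, the level of Aldoa is uncertain, though the feature not used held only 608 counts against 2120. Why the level is so low was not tested.

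Pgk1 (ENSMUSG00000062070.13) encodes phosphoglycerate kinase, an ATP-producing step of lower glycolysis. It was at 201, 188, 207 and 260 CPM on plate 1 and at 207, 207, 223 and 249 CPM on plate 2. Bins 1 to 3 overlapped between neighbours, and bin 4 stood above all of them on both plates. The trend was 0.11 ± 0.02 (adjusted p = 0.0102, edgeR), a mean 1.25-fold difference from bin 1 to bin 4. It was not called without bin 2 (adjusted p = 0.0890) or without bin 3 (adjusted p = 0.0637, both edgeR).

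Pkm (ENSMUSG00000032294.18) encodes pyruvate kinase, the last step to pyruvate, and its splice forms are not separated in these counts. It was at 1032, 1094, 1164 and 1366 CPM on plate 1 and at 1024, 1076, 1212 and 1380 CPM on plate 2. Every step was upward on both plates, and no neighbouring bins overlapped. The trend was 0.14 ± 0.01 (adjusted p = 0.00129, edgeR), the smallest adjusted p of the 10 genes, and the mean difference from bin 1 to bin 4 was 1.34-fold.

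Ldha (ENSMUSG00000063229.16) encodes the muscle-type subunit of lactate dehydrogenase, which turns pyruvate into lactate. It was at 474, 465, 510 and 589 CPM on plate 1 and at 456, 479, 530 and 599 CPM on plate 2. Bins 1 and 2 overlapped, and both later steps were upward without overlap. The trend was 0.12 ± 0.01 (adjusted p = 0.00294, edgeR), and the mean difference from bin 1 to bin 4 was 1.28-fold.

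These 4 calls depended on the brightest bin. With bin 4 left out, none of the 10 genes was called by edgeR, and 2 had an unadjusted p under 0.05: the trend was 0.12 for Slc2a1 (adjusted p = 0.388), 0.04 for Pgk1 (adjusted p = 0.590), 0.11 for Pkm (adjusted p = 0.0692) and 0.08 for Ldha (adjusted p = 0.179). Settings with a bin left out used an additive linear model of bin number and plate. That model called 237 genes in the whole table without bin 4, against 1858 with all bins. With all bins it called 4 of the 10 genes.

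Pdk1 (ENSMUSG00000006494.12) encodes a kinase that switches off pyruvate dehydrogenase and so slows the conversion of pyruvate to acetyl-CoA in mitochondria. It was at 27.9, 26.2, 27.8 and 23.8 CPM on plate 1 and at 27.6, 25.6, 27.8 and 26.0 CPM on plate 2. Both plates were high in bins 1 and 3 and low in bins 2 and 4. The trend of -0.04 ± 0.02 did not pass (adjusted p = 0.382, edgeR).

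Vegfa (ENSMUSG00000023951.19) encodes a secreted growth factor for blood vessels. It was at 15.9, 17.7, 16.4 and 17.5 CPM on plate 1 and at 16.4, 14.7, 21.9 and 21.8 CPM on plate 2. Plate 2 was higher in the brighter pair of bins and plate 1 was nearly level, so the SD in bin 3 was 3.88 CPM around a mean of 19.1 (n = 2). The trend of 0.10 ± 0.05 did not pass (adjusted p = 0.217, edgeR).

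Bnip3 (ENSMUSG00000078566.9) encodes a receptor on the mitochondrial surface that targets mitochondria for autophagy. It was at 70.6, 61.0, 65.4 and 57.8 CPM on plate 1 and at 62.2, 68.2, 65.2 and 67.6 CPM on plate 2. Bin 1 was the highest on plate 1 and the lowest on plate 2, and all bins overlapped. The trend of -0.02 ± 0.03 did not pass (adjusted p = 0.670, edgeR).

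From bin 1 to bin 4, 6 of the 10 genes rose without overlap between plates (Slc2a1, Aldoa, Pgk1, Pkm, Ldha and Vegfa) and 2 fell without overlap (Hk2 and Pdk1). The same held for 26.5% of all genes tested upward and 27.8% downward, so for Aldoa, Vegfa, Hk2 and Pdk1 a bin 4 clear of bin 1 is a common outcome in these sums.

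**Figure D2:**
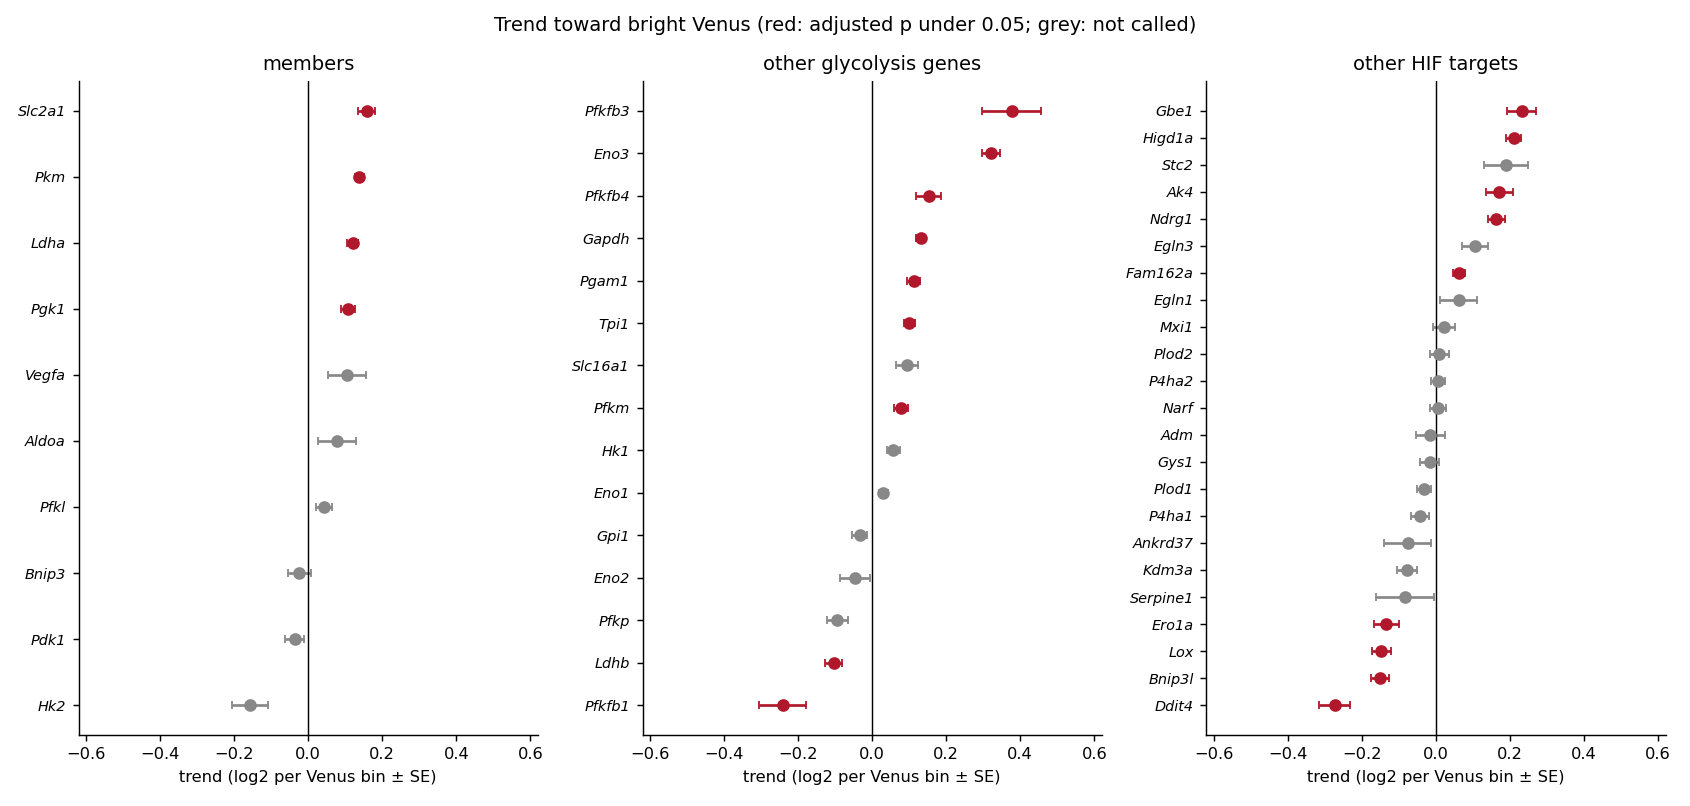
Trend toward bright Venus in log2 units per bin with its standard error (horizontal axis) for the 10 genes, other glycolysis genes and other HIF targets, the latter lists drawn for tested genes whose mean log2 CPM reached 1; red marks an adjusted p under 0.05 by edgeR. Slc2a1, Pkm, Ldha and Pgk1 sit at 0.11 to 0.16, while the called HIF targets lie on both sides of 0, from -0.27 for Ddit4 to 0.23 for Gbe1.

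The other glycolysis genes had more rises than falls. Of 19 other glycolysis genes, 18 were tested, 7 rose, 2 fell and 9 did not pass, with a median trend of 0.08 log2 units per bin against 0.00051 over all genes tested. Eno3, an enolase, rose by 0.32 ± 0.02 (adjusted p = 0.000795, edgeR). Pfkfb4, which makes an activator of phosphofructokinase, rose by 0.15 ± 0.03 (adjusted p = 0.0249, edgeR). Gapdh, which acts just before Pgk1, rose by 0.13 ± 0.01 (adjusted p = 0.00161, edgeR), and Pgam1, phosphoglycerate mutase, which acts just after it, by 0.11 ± 0.02 (adjusted p = 0.00695, edgeR). The fallers were Ldhb, the heart-type partner of Ldha, at -0.10 ± 0.02 (adjusted p = 0.0199, edgeR), and Pfkfb1 at -0.24 ± 0.06 (adjusted p = 0.0417, edgeR). Pfkfb1 and Pfkfb3, which had the largest called rise of the list at 0.38 ± 0.08 (adjusted p = 0.0200, edgeR), are low transcripts named after their values were seen. Ldha and Ldhb, which encode subunits of the same enzyme, thus passed the test in opposite directions.

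Pyruvate entry into mitochondria was described by a list of its own. Of 12 genes of the pyruvate carrier, pyruvate dehydrogenase and its kinases and phosphatases, none rose in edgeR (3 at an unadjusted p under 0.05, and 1 by DESeq2) and 1 fell. That gene was Pdp1, a phosphatase that reactivates pyruvate dehydrogenase and so opposes Pdk1, at -0.15 ± 0.02 (adjusted p = 0.00872, edgeR). The list median was 0.02 log2 units per bin, and 1 call in 12 is no larger a share than the 15.4% of all genes tested that were called in either direction.

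Other targets of HIF were called in both directions. Over all genes tested the shares were 6.78% higher and 8.64% lower, and of 9053 genes of mean log2 CPM 3 or more, 953 rose and 1343 fell. Of 28 such genes 26 were tested, 5 rose, 4 fell and 17 did not pass, with a median trend of 0.0050 log2 units per bin. The risers were Gbe1 (glycogen branching enzyme) at 0.23, Higd1a (a mitochondrial hypoxia-induced protein) at 0.21, Ak4 (adenylate kinase 4) at 0.17, Ndrg1 at 0.16 and Fam162a at 0.06. The fallers were Ddit4, an inhibitor of the growth kinase mTORC1 that is also induced by other stresses, at -0.27, Bnip3l, the closest relative of Bnip3, at -0.15, Lox, a collagen crosslinker, at -0.15, and Ero1a, an oxidase of the endoplasmic reticulum, at -0.13. Of the HIF pathway itself, 11 of 13 genes were tested and none was called by edgeR, while 1 was higher and 1 lower at an unadjusted p under 0.05, and likewise by DESeq2. Hif1a, the oxygen-regulated subunit, had a trend of 0.01 ± 0.02 (adjusted p = 0.781, edgeR), and its partner Arnt one of -0.07 ± 0.02 (adjusted p = 0.0590, edgeR). The oxygen-dependent control of HIF acts on the protein, which was not measured. Vldlr and Epas1 of these lists were not analysed here.

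Other measures differed along the same bins. The median number of genes detected per cell rose at every bin, from 10933 to 11300 on plate 1 and from 10867 to 11315 on plate 2. Fibroblast markers went in both directions. Thy1 was at 89.3 and 72.9 CPM in bin 1 and at 30.8 and 30.0 CPM in bin 4. Vim rose from 3283 and 3432 CPM to 4210 and 4285 CPM. S100a4 rose from 581 and 584 CPM to 681 and 680 CPM. The 9 markers summed to 26062.6 and 23734.9 CPM in bin 1 and to 19997.5 and 20635.9 CPM in bin 4. Of 18 S phase genes, which act in DNA replication, 10 rose and none fell in edgeR (1 lower at an unadjusted p under 0.05, and 0 by DESeq2), and their summed level went from 299 and 343 CPM in bin 1 to 542 and 495 CPM in bin 4 on plates 1 and 2. Of 18 genes of G2 and mitosis, 5 rose and none fell in edgeR (0 lower at an unadjusted p under 0.05, and 0 by DESeq2), and their sum was 296 and 480 CPM in bin 1 and 664 and 641 CPM in bin 4, with 721 and 324 CPM in bins 2 and 3 of plate 2. The median trend of this list was 0.38 log2 units per bin on plate 1 and -0.03 on plate 2. The part of genes detected and of the fibroblast markers in the trends of the 10 genes was not tested. Median forward scatter was highest in bin 4 on both plates. When only the 382 cells at or below their plate's median for these cell cycle lists were summed, Slc2a1 (0.24, adjusted p = 0.0141), Pkm (0.13, adjusted p = 0.00478) and Ldha (0.11, adjusted p = 0.0134) were called by edgeR, and Pgk1 was not (0.09, adjusted p = 0.0824). When only the 380 cells within the interquartile range of forward scatter were summed, Pgk1 (0.11, adjusted p = 0.0361), Pkm (0.13, adjusted p = 0.00927) and Ldha (0.13, adjusted p = 0.0133) were called by edgeR, and Slc2a1 was not (0.15, adjusted p = 0.0629). Both of these settings were chosen after seeing the data.

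Well position was set beside the trends because column and bin coincide. Within bins, the average change across the 6 columns of a bin was -0.0030 log2 units for Slc2a1, -0.0065 for Pgk1, -0.03 for Pkm and -0.08 for Ldha. The 8 blocks of columns ranged from -0.30 to 0.37 for Slc2a1 and from -0.23 to 0.13 for Pkm, so the averages lie well inside their spread and bin and column still cannot be told apart.

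The plates were compared next. On library totals, plate 1 was lower than plate 2 for 9 of 10, with ratios from 0.862 for Vegfa (16.6 against 19.2 CPM, 95% exact binomial interval 0.831 to 0.894) to 1.08 for Hk2 (20.0 against 18.5 CPM, 1.04 to 1.12). The median ratio of the 10 was 0.945, close to the median of 0.958 over 9053 genes of mean log2 CPM 3 or more, of which 95% lay between 0.792 and 1.15. With TMM scaling the median of the 10 was 0.986. Each plate is 1 sample, so the plates were not tested against each other. The intervals cover counting error only, with each read taken as independent. The plates also differed in mitochondrial share, with a median of 9.27% on plate 1 and 7.42% on plate 2.

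Levels of different genes were compared per kilobase of exon, with lengths from GENCODE M21 on GRCm38. Pkm stood highest at 233 and 235 CPM per kilobase on plates 1 and 2, followed by Ldha at 154 and 156 and Pgk1 at 95.3 and 98.8. Bnip3 was at 28.1 and 29.1 CPM per kilobase and Slc2a1 at 24.5 and 25.3. Pfkl followed at 7.81 and 7.72 CPM per kilobase and Vegfa at 3.94 and 4.36. Pdk1 at 3.40 and 3.44 and Hk2 at 3.41 and 3.05 CPM per kilobase overlapped and cannot be ordered. Aldoa was last at 1.14 and 1.13 CPM per kilobase, against 219 and 222 for Tpi1, the enzyme that acts after it. Slc2a1, Hk2, Aldoa, Pkm and Bnip3 overlap another annotated gene in that annotation, and reads from such overlaps cannot be assigned with certainty. Processed copies of Ldha, Pgk1 and Aldoa that have their own symbol were each at most 0.121 CPM in every sum.

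Spread from cell to cell differed between the genes. The coefficient of variation of CPM over cells was 36.4% and 36.5% for Ldha, 40.6% and 41.2% for Pkm and 43.2% and 39.9% for Pgk1 on plates 1 and 2, against a median of 45.7% over genes of mean log2 CPM 5 or more. It was 72.8% and 67.6% for Slc2a1, and 51.2% and 47.9% for Bnip3. The widest spread was that of Hk2 at 97.6% and 127% and of Vegfa at 93.3% and 101%. Spread includes counting error, which is larger for low transcripts, and Hk2 and Vegfa lie below the level of the genes behind that median.

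Ldha, Pkm and Pgk1 were detected in every one of the 762 cells. Ldha had a median of 475 CPM on plate 1 with the 10th and 90th percentiles at 294 and 717, and of 499 CPM on plate 2 with 292 and 779. Slc2a1 was at 0 in 1 cell of each plate, and its 90th percentile was 2.10 and 2.04 times its median. Hk2 was at 0 in 47 cells of plate 1, so that 87.7% of cells had a count (95% exact Clopper-Pearson interval 84.0% to 90.8%), and in 56 cells of plate 2 (85.2%, 81.2% to 88.6%). Those intervals take the cells of a plate as independent. In cells thinned to 300000 counts, which left out 8 shallower cells, Hk2 was detected in 81.7% and 80.1%.

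**Figure D3:**
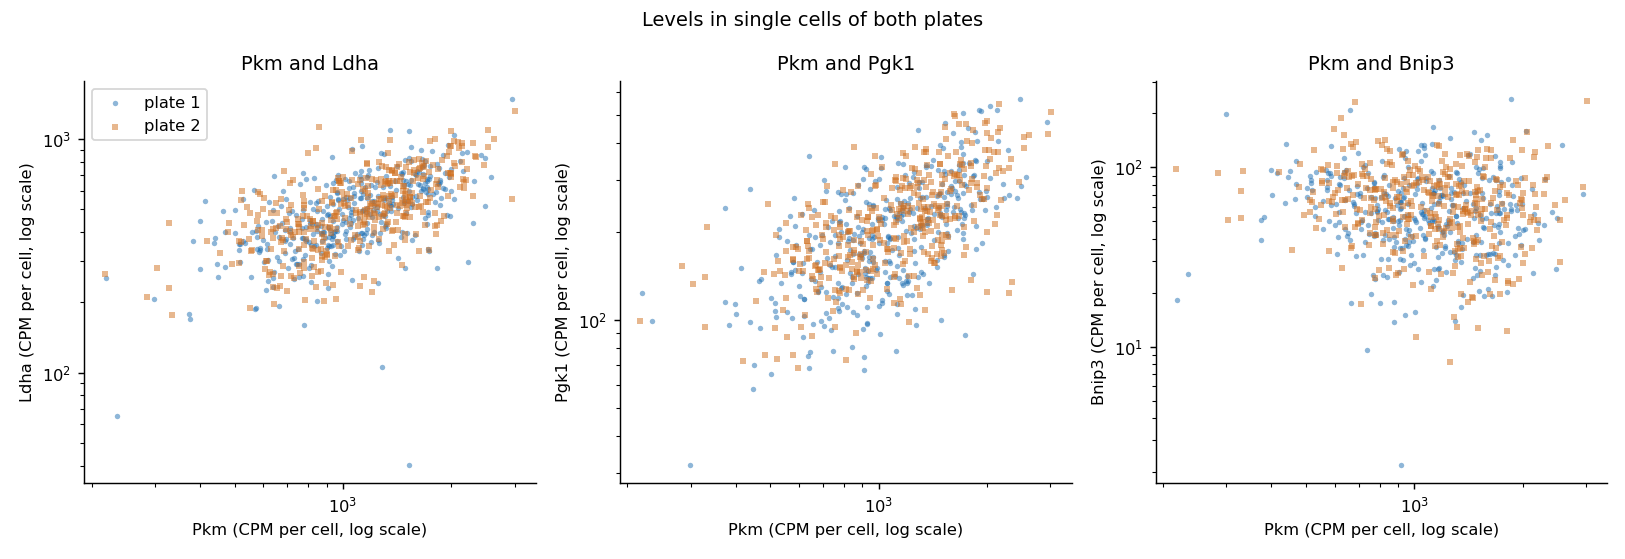
CPM of Pkm in each cell (horizontal axes) against CPM of Ldha, Pgk1 and Bnip3 (vertical axes), on log scales, for the 762 cells; circles are plate 1 and squares plate 2. Ldha and Pgk1 climb with Pkm on both plates, and Bnip3 does not.

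Cells high in 1 of the later enzymes tended to be high in the others. Ranked within Venus bins, so that the bins do not enter, the Spearman correlation over 383 cells of plate 1 and 379 of plate 2 was 0.56 and 0.57 for Pgk1 with Pkm, 0.55 and 0.56 for Pkm with Ldha, and 0.52 and 0.40 for Pgk1 with Ldha. Pfkl followed these 3 less closely, at 0.27 to 0.34 on both plates, and Slc2a1 correlated with Pkm at 0.27 and 0.24. Over all pairs of 5248 genes of this filter, the median was 0.012 and 0.0092, and 95% of pairs lay between -0.19 and 0.22 on plate 1 and between -0.20 and 0.23 on plate 2. Hk2, Aldoa, Pdk1 and Vegfa lie below the level of this filter, so that range comes from more abundant genes than they are. Of the 45 pairs of the 10 genes, 7 lay above that range on both plates, all of them among Slc2a1, Pfkl, Pgk1, Pkm and Ldha. In thinned cells 5 pairs lay above that same range on both plates. The cells of a plate share library preparation and each cell's total, so these values are descriptions.

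Bnip3 and Vegfa had weak correlations of both signs with the enzymes. Bnip3 correlated with Pkm at -0.11 and -0.17 and with Pgk1 at -0.12 and -0.08, but with Pfkl at 0.15 and 0.09 and with Aldoa at 0.13 and 0.14. In thinned cells Bnip3 was at 0.12 and 0.06 with Pfkl, and at 0.09 and 0.0089 with the low transcript Aldoa. Vegfa correlated with Slc2a1 at -0.13 and -0.12, but with Pgk1 at 0.14 and 0.17 and with Pkm at 0.12 and 0.15. Among Pdk1, Vegfa and Bnip3, the values were 0.14 and 0.11 for Pdk1 with Bnip3, 0.0042 and 0.019 for Vegfa with Bnip3, and -0.0088 and -0.08 for Pdk1 with Vegfa. All of these weak values lie within the range given for pairs of other genes.

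**Figure D4:**
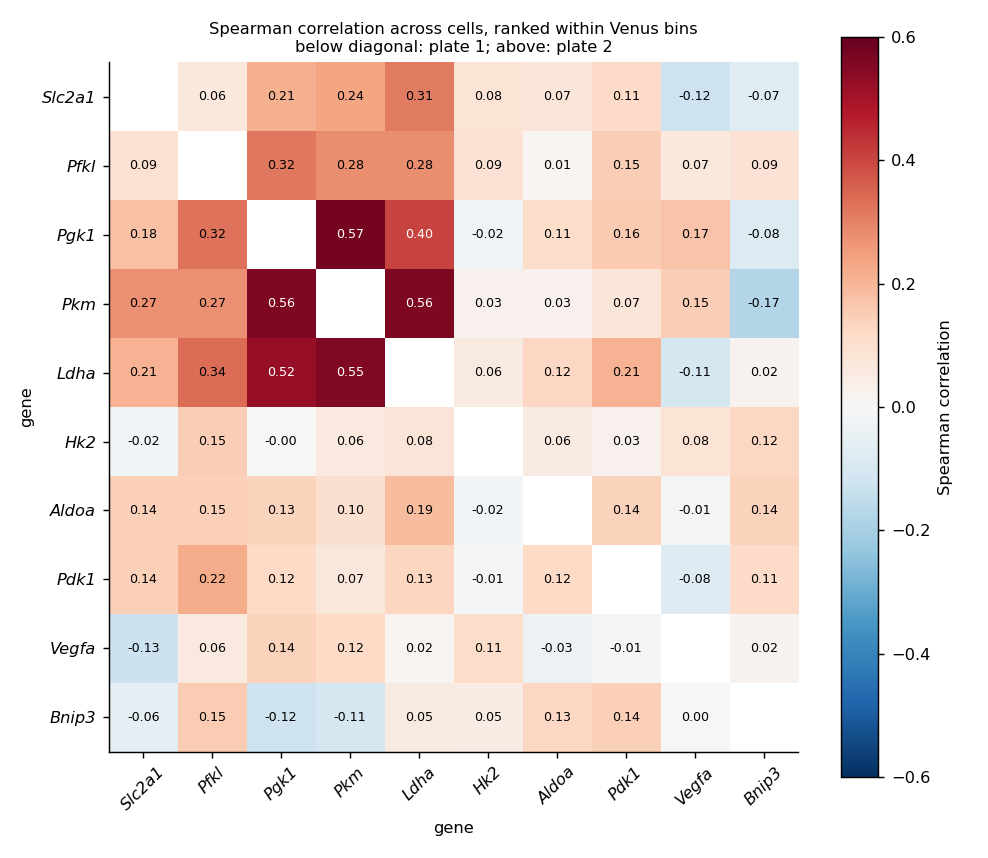
Spearman correlation between the 10 genes over cells ranked within Venus bins, below the diagonal for plate 1 (383 cells) and above it for plate 2 (379 cells). Pgk1, Pkm and Ldha form a block of 0.40 to 0.57, and every pair with Hk2, Aldoa, Pdk1, Vegfa or Bnip3 lies between -0.17 and 0.22.

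A score was formed by averaging each cell's ranks over the 10 genes, and 5242 other genes were correlated with it within bins. The 10 most alike were Eno1 (0.53 and 0.60 on plates 1 and 2), Taldo1, Tpi1, Pgam1, Gapdh, Anxa2, S100a10, Cavin1, Dap and Gsto1 (0.43 and 0.42). Of these, 4 are enzymes of glycolysis from the list above, and Taldo1 is transaldolase of the adjoining pentose phosphate pathway. The 5 most opposed were Fstl1 (-0.45 and -0.48), Bgn, 2410006H16Rik, Marcks and Serpinf1 (-0.40 and -0.48); Bgn and Fstl1 encode secreted proteins of the matrix and its surroundings. Eno1 had no called trend over the bins (0.03 ± 0.01, adjusted p = 0.157, edgeR) although it followed the score most closely from cell to cell. Other lists were spread over the ranking. Of the pyruvate entry genes, Pdha1 ranked 24 and the next, Dld, 1092. Of the other HIF targets, Fam162a ranked 67 and Plod2 ranked 5081, and Ldhb ranked 5049.

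Taken singly, the genes had different companions, each picked as 1 of the 3 closest among 5242 genes, which favours high values. Pkm was followed most closely by Anxa2 (0.73 and 0.78), Cavin1 and Gapdh, and Ldha by Eno1 (0.51 and 0.56), Cavin1 and Clic1. Pgk1 was followed by Tm4sf1 (0.54 and 0.54), Eno1 and S100a6, and Pfkl by Tpi1 (0.33 and 0.30), Eno1 and Pgam1. Slc2a1 was followed by Prdx1 (0.34 and 0.35). Bnip3 had Laptm4a (0.36 and 0.38), Calcoco1 and Npc2, genes of lysosomes and autophagy, and Vegfa had Cebpb (0.30 and 0.31), Rpl8 and Cd44. Pdk1 had Mapk8ip1 (0.24 and 0.21), P4ha1 (0.20 and 0.28), a prolyl hydroxylase subunit of the HIF target list, and Scd1. Hk2 had Gnl3 (0.19 and 0.20) and Aldoa had Slc25a1 (0.19 and 0.22). These values of Hk2 and Aldoa lie within the range of 95% of gene pairs, which reached 0.22 on plate 1 and 0.23 on plate 2. Mapk8ip1 with Pdk1 lay within it on plate 2, and P4ha1 with Pdk1 on plate 1.

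Several cell measures followed the score and some of the enzymes within bins. The score correlated with the mitochondrial share of counts at -0.37 and -0.19 and with the number of genes detected at 0.21 and 0.21. For each cell, the cell cycle lists were taken as the mean of log-scaled CPM over their genes, not as a summed level. Pkm correlated with the S phase list at 0.31 and 0.39 and with the G2 and mitosis list at 0.35 and 0.38. Pgk1 and Ldha were also positive with both lists on both plates. Bnip3 had the opposite sign, at -0.19 and -0.29 with the S phase list and at -0.24 and -0.28 with the G2 and mitosis list. The enzyme Aldoa was negative too, at -0.04 and -0.13 with the former and at -0.12 and -0.14 with the latter. Hk2 was at 0.04 and -0.14 with the former and at -0.03 and -0.11 with the latter. With Venus fluorescence itself the score correlated at 0.23 and 0.26 over whole plates and at 0.012 and 0.07 within bins, where little of the Venus range is left. The part of these measures in the correlations between genes was not tested.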

How the data were processed

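FLASH-seq libraries of 768 sorted cells were analysed. The deposited table held whole-number counts per gene and cell, with features as versioned Ensembl identifiers. STAR 2.7.11a, SAMtools, bedtools and HTSeq on GRCm39 are listed in the submitters' processing notes; the annotation release and any use of strand are not given in the sources used here. The deposited sorting record held Venus, iRFP and scatter intensity in arbitrary units, with gate and well. Gates were ordered by median Venus intensity within a plate. Reads copied by PCR were not traced to molecules, so intervals on counts take every read as independent and can be too narrow. Intervals on detection take the cells of a plate as independent. None of them covers differences between plates or cultures.

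Cells with at least 1000 genes, at least 0.1 of their plate's median total and at most 25% mitochondrial counts were kept (762 cells, 151173 to 1618022 counts each). Sums per plate and bin were fitted with edgeR 4.0.16 in R 4.3.3 (TMM, filterByExpr, quasi-likelihood) on 4 bins plus plate, and tested for a linear trend and for any difference, with p-values adjusted by Benjamini-Hochberg across the 18430 genes tested. The fit was tested on simulated data. DESeq2 1.42.0 was an alternative, as were other scalings, filters, cells, thinning and leaving out bins. Features without a symbol held 1.07% of counts. When 2 features shared a symbol, the one with more counts kept it. Symbols came from the supplied reference tables. Each plate carries 1 iRFP sort, so 8 sums were fitted, with plate as the replicate block. Doublets were not called, because wells received cells sorted singly.

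For correlations over cells, CPM was ranked within plate and bin, over genes whose mean log2 CPM reached 5. Of each list, the largest trends among called genes whose mean log2 CPM reached 3 were named, up to 4 per direction; exceptions were chosen after their values were seen. Likeness named the 10 highest and 5 lowest genes by the value of the plate nearer to 0, and the top 3 for each gene; some of these are not reported here. The genes and lists were chosen with earlier results of these data known.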

Additional observations from a re-analysis of the deposited data

Results flagged for a closer look

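Bnip3 moved in opposite directions on the 2 plates. Its trend over the Venus bins was -0.08 log2 units per bin on plate 1 (high iRFP sort) and 0.03 on plate 2 (low iRFP sort). With 1 sum per plate and bin this difference was not tested, and plate and sort cannot be told apart.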

How the results depend on the processing

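Each gene's trend was recomputed under 15 other settings with a test and on each plate alone. Of the 150 values with a test, 137 kept their side of the threshold, 9 lost a call and 4 gained one, and no called trend changed sign. Slc2a1, Hk2, Aldoa, Pgk1, Pkm, Ldha and Vegfa kept their sign under all 17, plate 1 and plate 2 alone included, and Pfkl, Pdk1 and Bnip3 changed it under 1 each. A single plate leaves no test, so calls could not be counted without a plate. With bin 4 left out, 0 genes of the 10 were called by edgeR for a trend. The count called for any difference fell from 5 to 3 without the replicate block, to 3 in cells low for the cell cycle lists and to 2 in cells within the interquartile range of forward scatter. Without the replicate block the trend calls stayed at 4.

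Over all genes, trend calls went from 2843 to 1683 without the replicate block, 1858 with an additive linear model, 1003, 1143, 1209 and 237 without bins 1, 2, 3 and 4, 1289 in low cell cycle cells and 1215 in cells of intermediate scatter. The settings without a bin used that additive linear model, so 1858 is their count with all bins. Calls of any difference went from 1542 to 3641 with DESeq2, 490 without the replicate block, 543 in low cell cycle cells and 422 in cells of intermediate scatter. The cause was not tested.

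The median plate ratio moved from 0.945 to 0.986 with TMM. The median correlation over the 45 pairs was 0.102 on whole plates, 0.0895 to 0.115 with either plate left out and 0.0668 in thinned cells. The median likeness of the 10 most alike genes was 0.460, and 0.460 to 0.491 with either plate left out. It was 0.420 without Pgk1 in the score, 0.360 without Pkm, 0.406 without Ldha and 0.502 without Bnip3, with at least 8 of the 10 genes shared. Low counts limit Aldoa most, at 2120 counts in all cells.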
